A study of Mus musculus with 10 samples.

Results

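The subject is the proteasome gene family in mouse hippocampal CA3 after a hairpin against the transcription factor Mef2c: the subunits of the proteasome, its activators and inhibitor, and the factors that assemble it. Members were the protein-coding genes whose symbols begin with Psma, Psmb, Psmc, Psmd, Psme, Psmf or Psmg followed by a number, plus Adrm1 and Pomp, without Psmb8 and Psmb9. This gave 50 genes of the 18453 in the count tables. Adeno-associated virus (AAV) was injected stereotaxically into CA3 of both hemispheres of C57BL/6J mice. It delivered an shRNA against Mef2c for 5 libraries and a scrambled shRNA for the other 5, so that both groups share the injection and an AAV that carries an shRNA. The sample labels give the animals as male, whereas the protocol text speaks of both sexes; neither the age, nor the promoter driving the hairpin, nor the time after injection was stated in the labels. Polyadenylated RNA was sequenced and reads were counted per gene. Whether each library stands for its own animal is not stated, so the p-values below reflect the library-to-library spread alone, and part of that may be technical.

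The proteasome degrades proteins that carry ubiquitin chains. Its barrel-shaped 20S core is built of rings of alpha subunits, which gate the entrance, around rings of beta subunits, of which Psmb5, Psmb6 and Psmb7 carry the peptidase activities. The 19S cap binds to the core: its base holds a ring of ATPases that unfold substrates together with ubiquitin receptors, and its lid removes ubiquitin. Other complexes, such as the PA28 activator made of Psme1 and Psme2, can bind in place of the cap. Interferon induces PA28 and a set of alternative beta subunits, Psmb8, Psmb9 and Psmb10, which replace the constitutive peptidase subunits to give the immunoproteasome. In neurons the proteasome has been studied for its part in synaptic plasticity and protein turnover.

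Library totals ranged between 15669620 and 17798090 counts in the Mef2c shRNA libraries, and between 14701928 and 15637076 in the scramble libraries, so each Mef2c shRNA library was the deeper. Mef2c itself stood at 111, 131, 121, 163 and 286 CPM (counts scaled to a common library size) in Mef2c shRNA libraries 1 to 5, against 166, 198, 176, 312 and 175 CPM in scramble libraries 1 to 5. The groups overlapped, since the library labelled Mef2c shRNA 5 stood above 4 of the 5 scramble libraries. With a log2 fold change of -0.34, SE 0.30 (edgeR quasi-likelihood test, adjusted p = 0.489), the libraries did not show a knockdown beyond their spread. That log2 fold change was -0.64 without Mef2c shRNA library 5 (edgeR adjusted p = 0.0877), -0.14 without scramble library 4 (edgeR adjusted p = 0.799) and -0.45 without both (edgeR adjusted p = 0.0274). The 6 cortical layer neuron markers (Cux2, Rorb, Fezf2, Tbr1, Lamp5 and Rasgrf2) summed to 276, 265, 251, 340 and 502 CPM in Mef2c shRNA libraries 1 to 5, against 303, 321, 315, 434 and 340 CPM in scramble libraries 1 to 5. They were thus highest in the same library of each group as Mef2c, none was at 0 in any library, and their part in the Mef2c values was not tested. All 5 CA3 pyramidal neuron markers (Grik4, Iyd, Cpne4, Spock1 and Nectin3) were detected in every library, and their summed level was 371 to 537 CPM in Mef2c shRNA libraries and 451 to 520 CPM in scramble libraries. Of 14 microglia markers 7 were called higher, beside 4.66% of all genes tested. Their sums were 482 to 989 CPM in Mef2c shRNA libraries and 395 to 568 CPM in scramble libraries, and none was at 0 in any library. Of 20 interferon-stimulated genes, Rtp4 was called higher and the others were not, beside the same 4.66% of all genes. Their sums were 101 to 895 CPM in Mef2c shRNA libraries and 92.0 to 317 CPM in scramble libraries, and none was at 0. In such bulk tissue, fewer cells of a type and less RNA per cell cannot be told apart.

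Proteasome genes were mostly a little higher in the Mef2c shRNA libraries. Of the 50 members 48 had enough counts to be tested, and 16 were called higher and 1 lower at a Benjamini-Hochberg adjusted p under 0.05 by edgeR's quasi-likelihood test. The shares were 33.3% higher and 2.08% lower, where 4.66% of all 14393 genes tested were called higher and 7.61% lower. The log2 fold change was positive in 46 of the 48, and in 52.8% of all genes tested. The members' median was 0.19, beside a median of 0.02 over all genes tested. Single values lay between -0.22 for Psme4 and 0.69 for Psmb10. In 7 members, Adrm1, Psmc1, Psmd3, Psmd4, Psmd8, Psmd11 and Psme2, every Mef2c shRNA library stood above every scramble library, a separation shown by 3.3% of all genes tested. In Psme4 every Mef2c shRNA library stood below every scramble library, as in 6.04% of all genes tested.

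**Figure D1:**
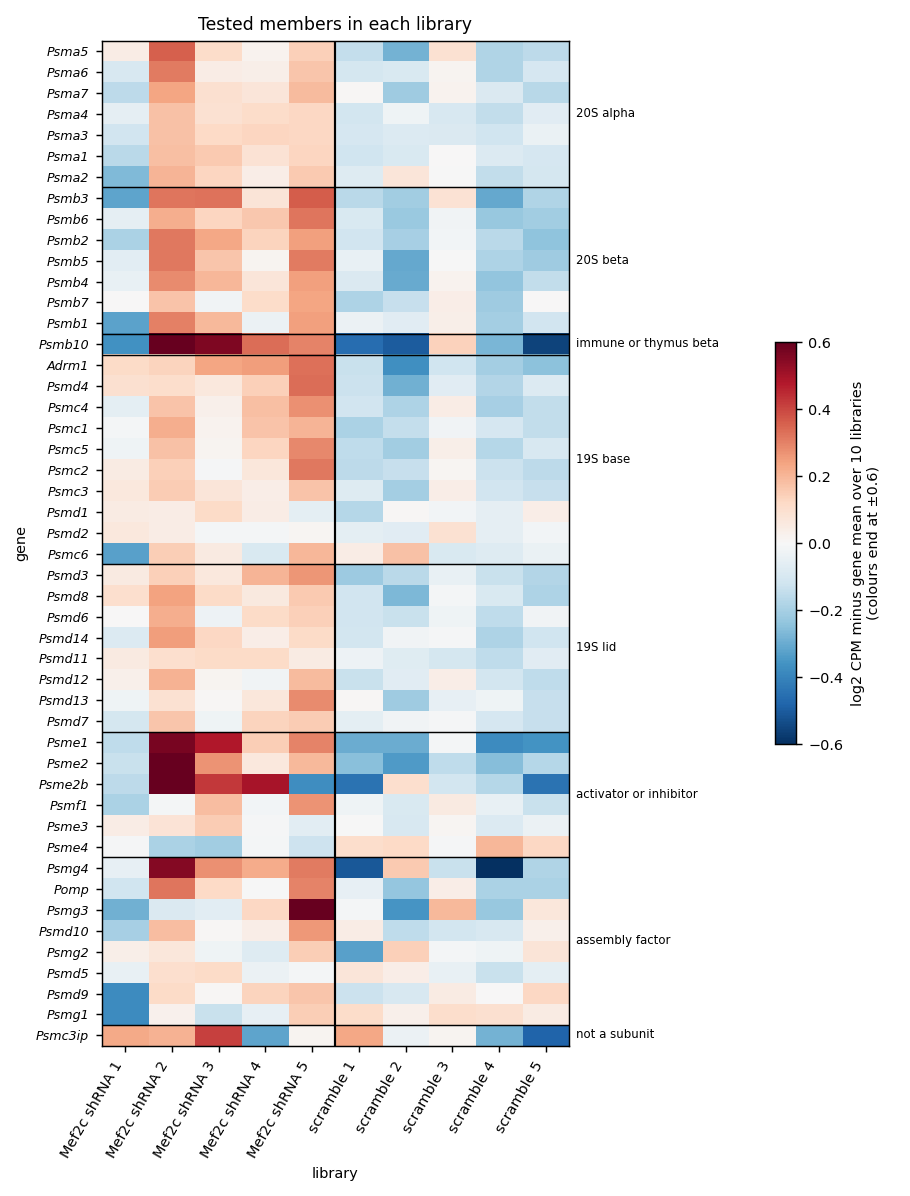
Log2 CPM of each tested member minus that gene's mean over the 10 libraries, with libraries in columns (Mef2c shRNA left, scramble right) and genes in rows by class. Most core and cap genes are above their mean in Mef2c shRNA libraries 2 to 5 and below it in scramble libraries 1, 2, 4 and 5, while Mef2c shRNA library 1 is near the scramble level for many core genes.

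The size of the count depended on single libraries. It was 31 without Mef2c shRNA library 1, where 10.5% of all genes were called higher, and 4 without Mef2c shRNA library 2, scramble library 2 or scramble library 5, where the shares of all genes were 1.26%, 0.896% and 0.95%. DESeq2's Wald test called 22 members higher and 1 lower, beside 8.27% and 9.84% of all genes, and limma-voom with sample weights 28 and 1, beside 11.0% and 12.6%. The median log2 fold change stayed between 0.17 and 0.23 when any library was left out. After correction of each library for transcript length and GC content, 1 of the 48 members, Adrm1, was called higher and none lower, which is taken up after the classes.

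The 7 alpha subunits of the constitutive core had log2 fold changes between 0.11 (Psma2) and 0.27 (Psma5), with a median of 0.18, and none was called by edgeR, although 6 had an unadjusted p under 0.05 in the higher direction, as did 2201 of all 14393 genes tested. DESeq2's Wald test called 3 of the 7 higher, and limma-voom with sample weights 5, beside 8.27% and 11.0% of all genes. Psma5, which had the smallest p among them, stood at 43.5, 54.1, 45.5, 42.8 and 46.6 CPM in Mef2c shRNA libraries 1 to 5 and at 38.3, 34.7, 45.0, 37.2 and 37.8 CPM in scramble libraries 1 to 5. Scramble library 3 reached into the Mef2c shRNA range, with a log2 fold change of 0.27 (SE 0.09, edgeR adjusted p = 0.0534). Psma2, at the other end, averaged 65.1 ± 7.89 CPM in Mef2c shRNA libraries and 60.3 ± 3.69 CPM in scramble libraries (SD, n = 5 each). That difference was smaller than the SD of the Mef2c shRNA libraries but larger than that of the scramble libraries.

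Of the 7 constitutive beta subunits, 4 were called higher, beside 4.66% of all genes tested. The 4 were Psmb6, which has the caspase-like activity, Psmb5, which has the chymotrypsin-like activity, and the structural subunits Psmb4 and Psmb2. The median log2 fold change over all 7 was 0.30. Psmb6 stood at 63.6, 76.8, 72.3, 74.0 and 82.6 CPM in Mef2c shRNA libraries 1 to 5, against 62.0, 56.7, 65.2, 56.4 and 57.2 CPM in scramble libraries 1 to 5. Mef2c shRNA libraries 2 to 5 were above every scramble library, and library 1 was below scramble library 3. This gave Psmb6 a log2 fold change of 0.31, SE 0.07 (edgeR adjusted p = 0.0184). Psmb4 averaged 121 ± 11.1 CPM in Mef2c shRNA libraries and 98.6 ± 8.70 CPM in scramble libraries (SD, n = 5 each), a log2 fold change of 0.30 (edgeR adjusted p = 0.0261). For Psmb5, the means were 71.4 ± 8.38 CPM in Mef2c shRNA libraries and 57.9 ± 4.99 CPM in scramble libraries (SD, n = 5 each), with an edgeR adjusted p of 0.0379. Psmb2 averaged 45.2 ± 5.82 CPM in Mef2c shRNA libraries and 36.7 ± 2.26 CPM in scramble libraries (SD, n = 5 each), with an edgeR adjusted p of 0.0431. The groups overlapped in each of these genes, because Mef2c shRNA library 1 lay within the scramble range. Of the 10 fits that left out a library, 6 called Psmb6, 5 Psmb4, 3 Psmb5 and 2 Psmb2, and the highest adjusted p among them was 0.0575, 0.0789, 0.103 and 0.111 in that order of genes. All 4 were called without Mef2c shRNA library 1 or scramble library 3, and none without scramble library 2, 4 or 5 or Mef2c shRNA library 2. Psmb7, the trypsin-like subunit, averaged 54.5 ± 4.16 CPM in Mef2c shRNA libraries and 47.5 ± 3.76 CPM in scramble libraries (SD, n = 5 each) and was not called (edgeR adjusted p = 0.0917). Psmb3 had the largest log2 fold change of the 7, 0.33, but also the largest SE, 0.12, and an edgeR adjusted p of 0.0909.

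In the base of the 19S cap, 7 of 10 members were called higher, beside 4.66% of all genes tested. The 7 were 5 of the 6 ATPases, Psmc1 to Psmc5, and the ubiquitin receptors Psmd4 and Adrm1. Adrm1, which also anchors the deubiquitinase Uchl5 to the cap, had the smallest p of all members. It stood at 80.2, 81.3, 87.1, 88.0 and 93.0 CPM in Mef2c shRNA libraries 1 to 5, against 67.4, 57.4, 68.2, 64.2 and 62.4 CPM in scramble libraries 1 to 5. The lowest Mef2c shRNA library was well above the highest scramble library. Adrm1 thus had a log2 fold change of 0.43, SE 0.07 (edgeR adjusted p = 0.00173). It was called in each of the 10 fits that left out a library.

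Psmd4 stood at 95.8, 96.5, 93.5, 98.8 and 113 CPM in Mef2c shRNA libraries 1 to 5, against 82.0, 73.3, 85.5, 79.2 and 84.7 CPM in scramble libraries 1 to 5. The groups did not overlap, and Mef2c shRNA library 5 lay apart at the top. Psmd4 had a log2 fold change of 0.30, SE 0.07 (edgeR adjusted p = 0.0144), and it too was called without any single library. The promoters of both receptors are shown because these were the base genes with the smallest p. Each window is 300 bases of GRCm38.p6 from RefSeq, from 250 bases before to 50 bases after the transcription start, 5′ to 3′ on the gene's strand. The Adrm1 window is chr2:180171338-180171637 on the + strand, where capitals mark the match to TGACNNNGC, the core of the antioxidant response element, which the proteasome regulators Nfe2l1 and Nfe2l2 are known to bind. The Psmd4 window is chr3:95042565-95042864 on the - strand, where capitals mark the match to the interferon-stimulated response element, 2 copies of GAAA with any 2 bases between them, on the opposite strand.
Adrm1: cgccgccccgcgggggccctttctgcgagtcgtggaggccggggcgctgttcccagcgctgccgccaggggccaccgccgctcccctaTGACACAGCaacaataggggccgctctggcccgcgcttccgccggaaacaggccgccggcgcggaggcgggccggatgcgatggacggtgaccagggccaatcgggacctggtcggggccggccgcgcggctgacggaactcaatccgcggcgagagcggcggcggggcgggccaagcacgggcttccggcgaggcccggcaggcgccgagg
Psmd4: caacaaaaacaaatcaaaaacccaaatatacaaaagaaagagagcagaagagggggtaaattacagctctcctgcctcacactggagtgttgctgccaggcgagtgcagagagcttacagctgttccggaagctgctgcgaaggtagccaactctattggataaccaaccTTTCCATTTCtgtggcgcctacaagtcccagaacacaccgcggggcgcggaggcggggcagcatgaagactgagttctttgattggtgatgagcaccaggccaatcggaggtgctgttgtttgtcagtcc

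The match begins 162 bases before the start in Adrm1 and 80 bases before it in Psmd4, and none of the 6 other motifs searched overlapped either. Both strands of 45 windows of 42 members were searched; 8 members had no window. TGACNNNGC was in windows of 7 members (Adrm1, Psmb5, Psmb6, Psmc6, Psmd9, Psmd12 and Psme4), or 15.6% of the members' windows, and in 12.4% of all 32851 windows. The interferon-stimulated response element was in windows of 5 members (Psmb3, Psmd4, Psmd9, Psme1 and Psmg4), or 11.1% of the members' windows, and in 3.44% of all windows. CCGGAAG, bound by ETS factors, was in 40.0% of the members' windows and in 8.86% of all windows, the widest gap of the 7 motifs. It was in windows of 17 members, among them Adrm1, Psmd4 and Psme4 but not Psme1. In the windows printed in this report it is not in capitals. The MEF2 site, CTA and TAG with any 4 bases between them, was in windows of Psma2 and Psmb5, or 4.44% of the members' windows, against 3.69% of all windows. The remaining 3 motifs were TTCNNNGAA, with 4.44% of the members' windows and 8.3% of all windows, CCAAT, with 33.3% of the members' windows and 37.4% of all windows, and TGACGTCA, with 0 members' windows and 1.79% of all windows. A match is a run of letters only, and binding was not measured.

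Among the ATPases, Psmc1 had the smallest p. It stood at 132, 154, 135, 149 and 153 CPM in Mef2c shRNA libraries 1 to 5, against 116, 120, 131, 124 and 120 CPM in scramble libraries 1 to 5. The groups were apart by a small margin between Mef2c shRNA library 1 and scramble library 3, with a log2 fold change of 0.24 (SE 0.06, edgeR adjusted p = 0.0264). Psmc2, Psmc5, Psmc3 and Psmc4, in order of p, had log2 fold changes of 0.23, 0.24, 0.20 and 0.24, with edgeR adjusted p-values of 0.0420, 0.0434, 0.0445 and 0.0451. Each of these 4 overlapped between groups, with scramble library 3 the highest of its group in every case. Of the 10 fits that left out a library, 4 called Psmc1, 3 Psmc2, and 2 each of Psmc3, Psmc4 and Psmc5, with adjusted p-values of up to 0.113. All 5 were called without Mef2c shRNA library 1 or scramble library 3, and none without Mef2c shRNA library 2 or 4 or scramble library 1, 2, 4 or 5. Psmc6 was the exception in the ring: it stood at 51.3, 71.3, 66.6, 60.2 and 73.9 CPM in Mef2c shRNA libraries 1 to 5 and at 66.4, 72.7, 60.4, 60.8 and 62.5 CPM in scramble libraries 1 to 5. The groups overlapped throughout, with a log2 fold change of 0.00 (SE 0.09, edgeR adjusted p = 0.990). The scaffold subunits Psmd1 and Psmd2 had log2 fold changes of 0.08 and 0.04, and neither passed.

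**Figure D2:**
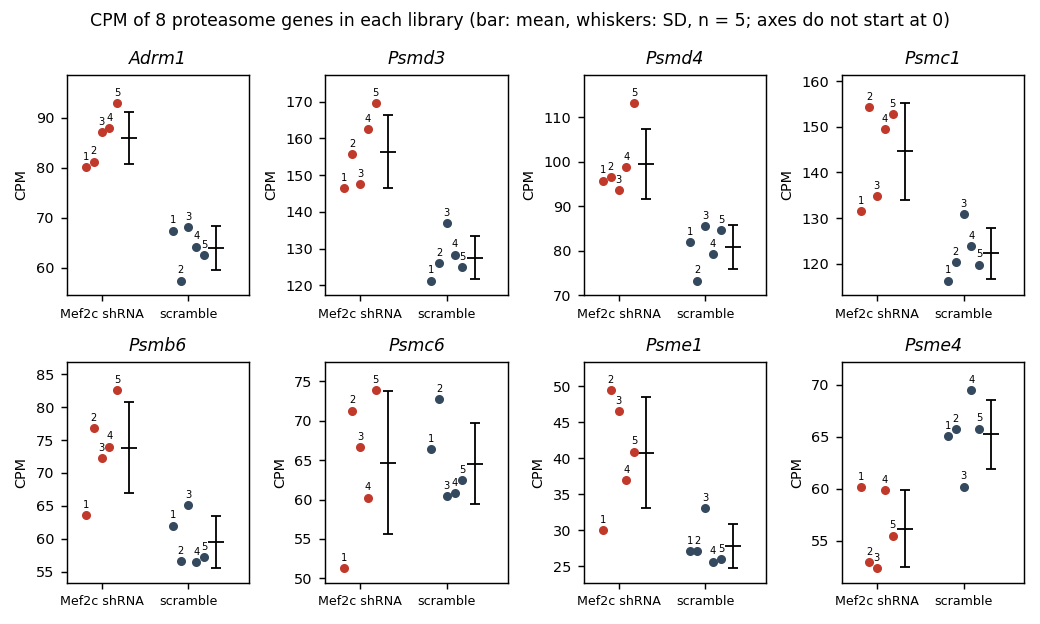
CPM of 8 proteasome genes in the 5 Mef2c shRNA libraries (red, left) and the 5 scramble libraries (dark, right), with points numbered by library, bars at the mean and whiskers of 1 SD; the vertical axes do not start at 0. Adrm1, Psmd3, Psmd4 and Psmc1 show no overlap between groups, Psmb6 and Psme1 overlap through Mef2c shRNA library 1, Psmc6 overlaps throughout, and Psme4 is lower in the Mef2c shRNA libraries.

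In the lid, 3 of 8 members were called higher, beside 4.66% of all genes tested. These 3, Psmd3, Psmd8 and Psmd11, are all structural subunits, and in each the groups did not overlap. Psmd3 stood at 146, 156, 148, 163 and 170 CPM in Mef2c shRNA libraries 1 to 5, against 121, 126, 137, 128 and 125 CPM in scramble libraries 1 to 5. Psmd3 had a log2 fold change of 0.29, SE 0.06 (edgeR adjusted p = 0.00898), and it was called without any single library. Psmd8 stood at 76.2, 84.2, 77.1, 74.2 and 79.5 CPM in Mef2c shRNA libraries 1 to 5, against 65.6, 59.1, 70.6, 66.7 and 62.6 CPM in scramble libraries 1 to 5. The margin was between Mef2c shRNA library 4 and scramble library 3, with a log2 fold change of 0.27 (SE 0.06, edgeR adjusted p = 0.0165). Without scramble library 2, scramble library 5 or Mef2c shRNA library 2 the adjusted p of Psmd8 was 0.0508, 0.0551 or 0.0512. Psmd11 had narrow groups, 66.5 ± 1.58 CPM in Mef2c shRNA libraries and 59.0 ± 1.90 CPM in scramble libraries (SD, n = 5 each), so that a log2 fold change of 0.17 passed (edgeR adjusted p = 0.0480). Psmd11 was called in 2 of the 10 fits that left out a library, those without Mef2c shRNA library 1 or 5, and its adjusted p was at most 0.125. Psmd14, the deubiquitinase of the lid, had a log2 fold change of 0.18 and was not called (edgeR adjusted p = 0.0934). The remaining lid members, Psmd6, Psmd7, Psmd12 and Psmd13, had log2 fold changes of 0.13 to 0.18 and were not called.

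The activators were called in both directions before, and in neither after, the correction for transcript length and GC content. Psme1 and Psme2, the alpha and beta subunits of PA28, were called higher, and Psme4 (PA200), a single-chain activator, was called lower, while Psme3 (PA28 gamma), Psme2b and the inhibitor Psmf1 (PI31) were not called. Psme1 stood at 29.99, 49.45, 46.54, 36.99 and 40.94 CPM in Mef2c shRNA libraries 1 to 5, against 27.17, 27.11, 33.09, 25.66 and 25.99 CPM in scramble libraries 1 to 5. Mef2c shRNA libraries 2 to 5 were above every scramble library, and library 1 was below scramble library 3. Psme1 had a log2 fold change of 0.55, SE 0.12 (edgeR adjusted p = 0.0144), and the call stood without any single library. Psme2 stood at 13.04, 24.42, 17.25, 14.97 and 16.37 CPM in Mef2c shRNA libraries 1 to 5, against 12.04, 11.32, 12.86, 11.99 and 12.72 CPM in scramble libraries 1 to 5. The groups were apart, though Mef2c shRNA library 1 exceeded scramble library 3 only just. Psme2 had a log2 fold change of 0.50, SE 0.14 (edgeR adjusted p = 0.0381), and the call was lost in 7 of the 10 fits that left out a library (all but those without Mef2c shRNA library 1, 4 or 5), with adjusted p-values of 0.0516 to 0.100. Psme2b, a close copy of Psme2 with which it could share reads, averaged 5.18 ± 1.52 CPM in Mef2c shRNA libraries and 3.74 ± 0.608 CPM in scramble libraries (SD, n = 5 each; edgeR adjusted p = 0.156), so the split of reads between these copies is uncertain.

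Psme4 was the only member called lower. It stood at 60.2, 52.9, 52.4, 59.9 and 55.5 CPM in Mef2c shRNA libraries 1 to 5, against 65.0, 65.7, 60.2, 69.5 and 65.8 CPM in scramble libraries 1 to 5. Mef2c shRNA libraries 1 and 4 nearly met scramble library 3, and the other libraries of each group were further away. This corresponds to a log2 fold change of -0.22, SE 0.06 (edgeR adjusted p = 0.0430), which after length and GC correction was 0.00 with the longest and 0.02 with the principal transcript. The call was lost in 8 of the 10 fits that left out a library (all but those without scramble library 3 or Mef2c shRNA library 1), with adjusted p-values of 0.0511 to 0.113. Psme3 averaged 105 ± 6.05 CPM in Mef2c shRNA libraries and 99.1 ± 3.17 CPM in scramble libraries (SD, n = 5 each), a log2 fold change of 0.08, and Psmf1 had one of 0.10. The promoters of Psme1 and Psme4 are shown because these activators were called in opposite directions without that correction. The Psme1 window is chr14:55578244-55578543 on the + strand, with the match to the interferon-stimulated response element on the opposite strand in capitals, beginning 9 bases after the start. The Psme4 window is chr11:30771525-30771824 on the + strand, with the TGACNNNGC match on the opposite strand in capitals, beginning 7 bases before the start. No other motif searched overlapped either match.
Psme1: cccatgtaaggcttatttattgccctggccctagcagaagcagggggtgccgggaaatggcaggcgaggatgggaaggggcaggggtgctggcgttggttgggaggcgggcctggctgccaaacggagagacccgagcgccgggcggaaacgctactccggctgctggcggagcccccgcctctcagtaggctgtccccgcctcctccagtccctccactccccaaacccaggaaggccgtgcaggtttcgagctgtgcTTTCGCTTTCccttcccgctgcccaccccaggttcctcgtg
Psme4: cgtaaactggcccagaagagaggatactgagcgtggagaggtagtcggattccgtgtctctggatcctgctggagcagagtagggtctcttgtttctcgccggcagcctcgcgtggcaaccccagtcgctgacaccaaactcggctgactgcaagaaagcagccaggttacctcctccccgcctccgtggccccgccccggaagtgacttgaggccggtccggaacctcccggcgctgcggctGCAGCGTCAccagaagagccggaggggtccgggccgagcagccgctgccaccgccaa

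None of the 8 assembly factors was called by edgeR, and 2, Pomp and Psmg4, had an unadjusted p under 0.05 in the higher direction (2201 of all 14393 genes tested). DESeq2 called 1 of the 8 higher and limma-voom 2, beside 8.27% and 11.0% of all genes. Their median log2 fold change was 0.09. Pomp, the chaperone that dimerises the forming core, averaged 66.6 ± 8.66 CPM in Mef2c shRNA libraries and 55.8 ± 4.57 CPM in scramble libraries (SD, n = 5 each), a log2 fold change of 0.25 (edgeR adjusted p = 0.0769). Psmg4, a chaperone of the alpha ring, averaged 6.59 ± 0.976 CPM in Mef2c shRNA libraries and 4.635 ± 1.023 CPM in scramble libraries (SD, n = 5 each; edgeR adjusted p = 0.0688). Psmg1, also an alpha ring chaperone, had the opposite sign, with a log2 fold change of -0.15 (edgeR adjusted p = 0.395). The base chaperones Psmd5, Psmd9 and Psmd10 had log2 fold changes of 0.05, 0.03 and 0.12. Psmc3ip, which the name pattern takes although its product is a partner of the recombination machinery and no proteasome subunit, had a log2 fold change of 0.22 (edgeR adjusted p = 0.509). Psma8, the alpha subunit of testis, had 0 to 7 counts in Mef2c shRNA libraries and 1 to 7 in scramble libraries, and Psmb11, the beta subunit of thymus, had 1 to 9 in Mef2c shRNA libraries and 0 to 6 in scramble libraries. Neither was tested, and no difference was detectable at this depth.

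**Figure D3:**
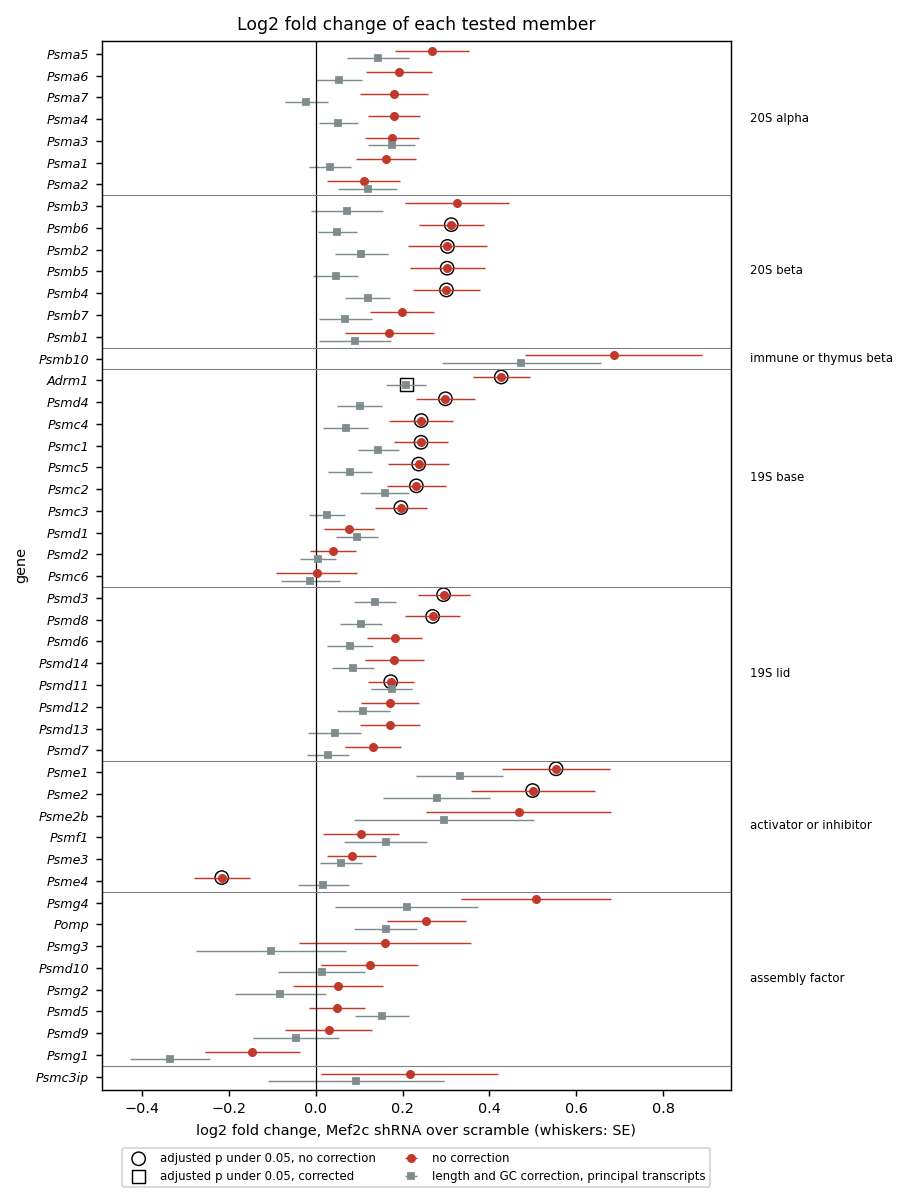
Log2 fold change (Mef2c shRNA over scramble, horizontal axis, whiskers of 1 SE) of each tested member by class, without correction (red circles) and after length and GC correction with principal transcripts (grey squares). Outlined symbols passed an adjusted p of 0.05: 17 genes without correction and Adrm1 alone with it.

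Set side by side, edgeR called 10 of 18 cap members higher (median log2 fold change 0.19) and 4 of 14 core members (median 0.20). Of the 6 activators it called 2 higher and 1 lower, with a median of 0.29. Of all genes tested, 4.66% were called higher and 7.61% lower. DESeq2 called 11 cap and 7 core members higher, and limma-voom 12 and 10, beside 8.27% and 11.0% of all genes. For the activators these 2 methods called 2 and 3 higher, and 1 lower each. After length and GC correction with either transcript, 1 cap member, 0 core members and 0 activators were called by edgeR. The differences between these classes were not tested. All 14 core and all 18 cap members had positive log2 fold changes, against 5 of the 6 activators. The libraries carried this unequally. The median core gene stood at -0.10, 0.26, 0.13, 0.08 and 0.21 on the log2 scale relative to its mean over all libraries in Mef2c shRNA libraries 1 to 5, against -0.10, -0.17, 0.01, -0.18 and -0.13 in scramble libraries 1 to 5. For the median cap gene these values were 0.04, 0.15, 0.04, 0.09 and 0.20 in Mef2c shRNA libraries 1 to 5, against -0.12, -0.14, -0.01, -0.12 and -0.14 in scramble libraries 1 to 5. Thus Mef2c shRNA library 1 was within the scramble range for the core and above it for the cap. The 4 choroid plexus markers (Ttr, Folr1, Kl and Clic6) summed to 2724.5, 45.3, 62.3, 51.1 and 665 CPM in Mef2c shRNA libraries 1 to 5, against 1716, 94.4, 67.4, 1953 and 978 CPM in scramble libraries 1 to 5. Mef2c shRNA library 1 was the highest of all, and the part of this tissue in its values was not tested. In all, 6 of the 18 cap genes and 0 of the 14 core genes had groups apart in the higher direction, beside 3.3% of all genes tested. These counts are of CPM without the length and GC correction.

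Proteasome transcripts are short, and in these libraries the fold change of all genes followed transcript length. By the length of the APPRIS principal transcript, the median log2 fold change of all genes tested was 0.24 up to 800 bases, 0.18 between 1200 and 1600 bases, 0.01 between 3000 and 4000 bases and -0.27 over 6000 bases. The median member was 1435 bases long, and 15 of the members fell between 1200 and 1600 bases, where the median of all genes was about that of the members. Psme4, the only member over 6000 bases, was near the median of its length class. Natural splines of length and GC content were then removed from each library. The members' median log2 fold change was then 0.08 with the longest transcript of each gene and 0.09 with the principal transcript. Beside these, the medians over all genes tested were 0.0046 and 0.0084. Of the 48 members, 40 and 42 were positive. Adrm1 was then the only member called, beside 0.695% of all genes higher and 0.959% lower with the longest transcripts, or 0.757% higher and 1.52% lower with the principal ones; 12 and 13 members had an unadjusted p under 0.05 in the higher direction, as did 1459 and 1391 of the 14393 genes tested. The corrected log2 fold change of Adrm1 was 0.40 (edgeR adjusted p = 0.0102) with its longest transcript of 4131 bases and 0.21 (edgeR adjusted p = 0.0328) with its principal transcript of 1535 bases. Psmd3 had corrected values of 0.18 and 0.14 with adjusted p-values of 0.0860 and 0.150, and Psme1 had 0.38 and 0.33 with 0.103 and 0.0981. By class the corrected medians were 0.08 and 0.07 for the core, 0.07 and 0.09 for the cap, and 0.19 and 0.22 for the activators. Whether the length trend arose in the tissue or in the libraries was not tested.

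**Figure D4:**
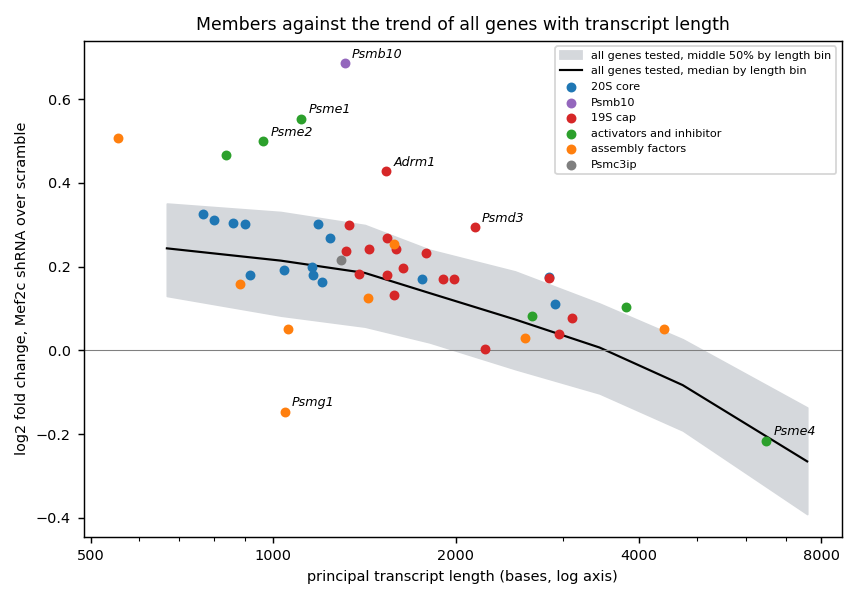
Log2 fold change (Mef2c shRNA over scramble, vertical axis) of each tested member against the length of its principal transcript (log axis), over the median (line) and the middle 50% (band) of all genes tested in 8 length bins. Most core and cap genes lie within the band; the labelled Adrm1, Psmd3, Psme1, Psme2 and Psmb10 lie above it, Psmg1 lies below it, and Psme4 lies near the line.

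The interferon-inducible members were among those with the largest positive values. Psmb10, the immunoproteasome counterpart of Psmb7, stood at 20.5, 46.3, 38.9, 33.2 and 32.4 CPM in Mef2c shRNA libraries 1 to 5, against 19.2, 18.7, 29.0, 21.8 and 17.9 CPM in scramble libraries 1 to 5. Mef2c shRNA libraries 2 to 5 were above every scramble library and library 1 was in the scramble range. The log2 fold change was 0.69 (SE 0.20), which missed the threshold in edgeR (adjusted p = 0.0519) and passed it in 7 of 24 alternatives. Its fellow subunits Psmb8 and Psmb9, outside the members, had log2 fold changes of 1.81 and 1.605 with edgeR adjusted p-values of 0.0866 and 0.143. Psmb8 stood at 5.52, 25.6, 18.4, 11.8 and 3.74 CPM in Mef2c shRNA libraries 1 to 5, against 1.75, 5.12, 7.09, 2.35 and 2.20 CPM in scramble libraries 1 to 5. Mef2c shRNA libraries 2 to 4 were high, and Mef2c shRNA library 5 was within the scramble range.

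The mean centred log2 CPM of the 20 interferon-stimulated genes was 0.17, 2.10, 1.75, 1.58 and -1.596 in Mef2c shRNA libraries 1 to 5, against -1.73, 0.11, 0.53, -1.40 and -1.52 in scramble libraries 1 to 5. Mef2c shRNA library 5 was thus among the lowest by this score, as it was in Psmb9 with 1.45 CPM, whereas in Psmb10, Psme1 and Psme2 it stood above every scramble library. With the score as a covariate the log2 fold change was 0.44 for Psmb10, 0.42 for Psme1 (edgeR adjusted p = 0.0661) and 0.37 for Psme2, and none passed. Without Mef2c shRNA libraries 2, 3 and 4 the values were 0.31, 0.35 and 0.27, and 0 members passed in edgeR, as did 0.0% of all genes tested, although 13 members and 1095 of all 14705 genes had an unadjusted p under 0.05 in the higher direction. When the score of the microglia markers was the covariate, the values were 0.21, 0.26 and 0.27; again 0 members and 0.0% of all genes were called by edgeR, and 9 members and 1231 of all 14393 genes had an unadjusted p under 0.05 in the higher direction. In these fits Adrm1 had log2 fold changes of 0.43 without the 3 libraries (edgeR adjusted p = 0.101) and 0.43 with the microglia score (edgeR adjusted p = 0.121). Psmd4 had 0.36 and 0.37, Psmd3 0.30 and 0.31, and Psmc2 0.298 and 0.295 in the same order of fits, and none of these was called. The part of microglia or of an interferon response in the members' values was not tested beyond these fits.

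**Figure D5:**
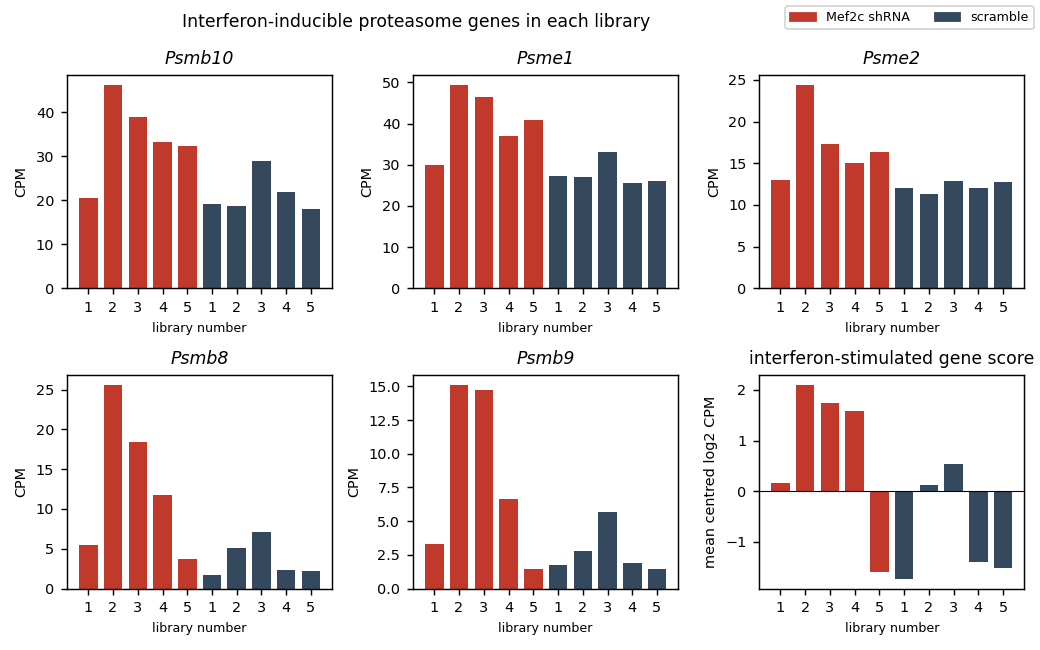
CPM of Psmb10, Psme1, Psme2, Psmb8 and Psmb9 and the mean centred log2 CPM of 20 interferon-stimulated genes in each library, with Mef2c shRNA libraries 1 to 5 (red) left of scramble libraries 1 to 5 (dark). Psmb8 and Psmb9 are high in Mef2c shRNA libraries 2 to 4 only, whereas Psmb10, Psme1 and Psme2 are also above every scramble library in Mef2c shRNA library 5.

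Levels were compared between members as CPM per kilobase of exon. In Mef2c shRNA libraries the highest member was the base ATPase Psmc5 with 97.5 ± 8.48, and it was also the highest in scramble libraries with 82.8 ± 5.63 (SD, n = 5 each). Psmb5 followed with 79.5 ± 9.32 in Mef2c shRNA libraries and 64.4 ± 5.55 in scramble libraries, and Psmc1 with 74.8 ± 5.49 in Mef2c shRNA libraries and 63.2 ± 2.87 in scramble libraries, so that the order of this last pair is within their spread. Among the alpha subunits Psma6 was highest, with 56.1 in Mef2c shRNA libraries and 49.1 in scramble libraries, and Psma3 lowest, with 17.1 in Mef2c shRNA libraries and 15.1 in scramble libraries. Psmb7 was the lowest constitutive beta subunit, with 15.9 in Mef2c shRNA libraries and 13.9 in scramble libraries, and Psmb10, with its order against Psmb7 depending on the group, was at 20.1 in Mef2c shRNA libraries and 12.5 in scramble libraries. Levels of the core subunits thus spanned a several-fold range. In the base Psmd1 was lowest, with 13.9 in Mef2c shRNA libraries and 13.2 in scramble libraries. In the lid Psmd7 was highest, with 41.9 in Mef2c shRNA libraries and 38.3 in scramble libraries. Psmd11 was the lowest lid gene, with 10.4 in Mef2c shRNA libraries and 9.25 in scramble libraries. The median lid gene lay below the median base ATPase, at 25.04 against 44.9 in Mef2c shRNA libraries and 21.6 against 38.7 in scramble libraries. Psme3 was the most abundant activator, with 35.6 in Mef2c shRNA libraries and 33.6 in scramble libraries, while the copy Psme2b was lowest in scramble libraries, with 4.47, and Psmf1 lowest in Mef2c shRNA libraries, with 4.94. Pomp was the most abundant assembly factor, with 12.8 in Mef2c shRNA libraries and 10.7 in scramble libraries, and Psmg3 the least abundant, with 1.49 in Mef2c shRNA libraries and 1.33 in scramble libraries. Exon length differs from transcript length where long isoforms are annotated: per kilobase of principal transcript Psma7 led the alpha subunits, Psmb4 the beta subunits and Psmd3 the lid. On that scale Psmb10 was below Psmb7, at 26.1 against 46.95 in Mef2c shRNA libraries and 16.3 against 40.9 in scramble libraries. The lowest base gene was then Psmc6, with 28.9 in both groups. The lowest alpha subunits were Psma2 and Psma3, at 22.4 and 23.4 in Mef2c shRNA libraries and both at 20.7 in scramble libraries. The order of Psma2 and Psma3 is within their spread. Psme2b was then the lowest activator in both groups, with 6.19 in Mef2c shRNA libraries and 4.47 in scramble libraries. Psmf1 was at 8.35 in Mef2c shRNA libraries and 7.77 in scramble libraries.

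Calls among genes that work with the proteasome are given beside all genes tested, of which 4.66% were called higher and 7.61% lower. Of 10 proteasome-associated genes, 9 were tested; Ecpas, a scaffold of the proteasome, was called lower with a log2 fold change of -0.35 (edgeR adjusted p = 0.00893), and the small lid subunit Sem1 (0.30) and the nuclear import factor Akirin2 (0.18) were not called. Among 12 ubiquitin shuttles and segregase genes, Ddi2, which cleaves the proteasome regulator Nfe2l1, was called lower at -0.37 (edgeR adjusted p = 0.00967), and Faf2 (-0.16) was not. Of 8 regulators of proteasome genes, Maff was called higher (1.24, edgeR adjusted p = 0.0363) and Ddi2 lower, while Nfe2l2 (0.40, edgeR adjusted p = 0.0662) and Nfe2l1 (-0.10) were not called. With the length and GC correction neither Ecpas, Ddi2 nor Maff passed, by either transcript. Zfand5, a proteasome-binding protein, was then called higher, at 0.31 with the longest transcripts (edgeR adjusted p = 0.04997) and 0.32 with the principal ones (edgeR adjusted p = 0.0379). The shares of all genes called higher in those 2 fits were 0.695% and 0.757%.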

How the data were processed

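RNA was measured in 5 Mef2c shRNA and 5 scramble libraries of mouse CA3, grouped by sample title. The authors deposited whole-number counts for each gene without normalization, as the values show. HISAT2, featureCounts and mm10 are named per the submitters' processing notes; their versions, the strandedness and the annotation are not given here. Reads of genes that overlap on opposite strands may therefore be mixed, and 4 annotated pseudogenes are named after Psm genes. In each table, 18421 of the 18453 identifiers matched GENCODE M21 (GRCm38, the assembly of mm10), 18392 of them protein-coding; the other 32 have no symbol here. Rows that are unnamed or summaries numbered 0. Within each group, no library duplicated another (chi-square per degree of freedom of at least 3.74). Pairs across the groups were not compared.

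After filterByExpr and TMM normalization, counts were tested in edgeR 4.0.16 (R 4.3.3, robust quasi-likelihood, Benjamini-Hochberg over 14393 genes, threshold 0.05). The biological coefficient of variation was 15.2%, above counting error for most members. Standard errors are the log2 fold change over the square root of F. CPM uses TMM-scaled totals. Log2 CPM had a prior count of 2 in the marker scores, the length and GC splines and the correlations of replicates. The log2 CPM of members relative to their means had no such prior count. Levels divide CPM by the length of the merged exons. The pipeline was tested on simulated data. The members, lists and tests were chosen with earlier results of these data known. Named genes are the called members, the highest and lowest of each class, the untested and interferon-inducible members, and the leading genes of the context lists, of which some are not reported here; others, such as Psma5, Psmc6, Psmb3, Pomp and Psmg4, were named after their values were seen.

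Alternatives were 2 normalizations, 2 filters, DESeq2 1.42.0, limma-voom (limma 3.58.1), a replicate block, 1 surrogate variable (sva 3.50.0), marker scores as covariates, removal of libraries, a threshold of 0.01, and offsets from natural splines (5 degrees of freedom) of log2 transcript length and GC content per library, with the longest transcript or, chosen after seeing the data, the APPRIS principal transcript.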

Additional observations from a re-analysis of the deposited data

Results flagged for a closer look

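In 3 of 36 groups of 5 libraries, formed by the called members and the interferon-inducible ones, 1 library lay far from the other 4, where chance gives about 1 in 20. Psmd4 reached 113.2 CPM in Mef2c shRNA library 5, with a gap to the next library of 0.731 of the group's range. Psme1 reached 33.09 CPM in scramble library 3, with a gap of 0.797 of the range. Psmc2 reached 85.86 CPM in scramble library 3, with a gap of 0.845 of the range. In each case the limit for 5 libraries is 0.71.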

How the results depend on the processing

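The count of 16 members called higher by edgeR was 28 with limma-voom, 8 with the replicate block (3.28% of all genes), 4 with 1 surrogate variable (0.91%) or the interferon score as covariate (2.4%), 1 with either length and GC correction, 0 with the microglia score as covariate or without Mef2c shRNA libraries 2, 3 and 4 (9 and 13 at an unadjusted p under 0.05, beside 1231 and 1095 of all genes), 4 without Mef2c shRNA library 5 and scramble library 4 (2.17%), and 2 at a threshold of 0.01 (0.299%). Other normalizations and filters and DESeq2 gave 13 to 22, beside 3.03% to 8.27% of all genes called higher. Leaving out each library in turn gave 4 to 31: 31, 4, 8, 9 and 10 without Mef2c shRNA libraries 1 to 5, beside 10.5%, 1.26%, 2.07%, 2.17% and 5.3% of all genes called higher, and 7, 4, 16, 5 and 4 without scramble libraries 1 to 5, beside 1.88%, 0.896%, 4.9%, 1.13% and 0.95%. The single member called lower, Psme4, was not called (0) with upper quartile normalization, no filter, the replicate block, 1 surrogate variable or either correction. It was also not called with either marker score, without either set of libraries, or at 0.01. Of the 10 fits that left out a library, 2 called Psme4, so each such fit called 0 or 1 members lower. The log2 fold change of Psme4 was 0.00188 and 0.0181 after correction with the longest and the principal transcripts. The median log2 fold change of 0.187 was 0.0781 after correction with the longest transcripts and at least 0.0882 otherwise, and 0.171 to 0.231 without each library. The log2 fold change of Mef2c was 0.196 with the microglia score (adjusted p = 0.802) and -0.446 without Mef2c shRNA library 5 and scramble library 4 (adjusted p = 0.0274). The cause of these shifts was not tested.

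The replicate numbers did not pair the libraries: same-numbered libraries correlated at 0.239, 0.185, 0.403, -0.114 and 0.0795, and only number 3 correlated best with its own number. With the replicate block the counts were 8 higher and 0 lower, beside 3.28% and 5.84% of all genes, and the median was 0.183. Adrm1 was called in 22 of 24 alternatives, Psmd3 and Psmd4 in 20 and Psme1 in 18. Depth was too low to test Psma8 and Psmb11, and counting error adds to the spread of low genes such as Psmc3ip, Psmg3 and Psme2b.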
